A study of Mus musculus with 17 samples.

Results

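The genes described here are 35 genes that type I interferon is known to switch on, listed by name. The list was chosen with earlier results of these data known. The arrays held 19751 genes with a probe set of 1 symbol, and 33 of the 35 were among them, with 1 probe set each. Isg15 and Ifi44 had no such probe set and are not analysed here. RNA of whole lung came from 17 Balb/c mice, 1 Affymetrix Mouse Gene 1.0 ST array per mouse. Saline mice (6) were sensitized and challenged with saline, isotype mice (5) with ovalbumin (OVA) under an isotype control antibody, and anti-RGMb mice (6) with OVA under a monoclonal antibody to RGMb, which binds neogenin and acts as a co-receptor of bone morphogenetic proteins. The design names a first and a second replicate of the groups, called experiments 1 and 2 here, with 3 mice per group except that experiment 2 had 2 isotype mice. Nothing in the labels says what separates the 2 sets. The labels name an antibody only for mice given OVA, so the allergen and the isotype antibody cannot be told apart in isotype mice. Age, sex and doses are not given in the sources used here, and lungs of all groups were taken at the same time of treatment. Lung identity was checked with marker genes: all 12 alveolar epithelial and all 11 endothelial markers were brighter than the median gene on every array, as were 5 of 9 markers of airway club and ciliated cells.

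Type I interferons are secreted proteins that bind the receptor pair Ifnar1 and Ifnar2 and act through the kinases Jak1 and Tyk2. These activate a transcription factor that contains Stat2 and Irf9 and binds the interferon stimulated response element in the promoters of target genes. The targets include sensors and enzymes that detect or degrade viral RNA, proteins that block entry or release of viruses, and regulators that extend or end the signal. In the lung they are best known from respiratory virus infection. Mx1 is a special case in the strain used, since most inbred laboratory strains, Balb/c among them, carry a defective allele of it.

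The response element shows in the promoters. The RefSeq promoter table (GRCm38.p6, from 250 bases before to 50 after the start of transcription) held 25 of the 35 genes. The element's core, searched as GAAANNGAA on both strands with overlapping matches allowed, stood in 15 of those 25 genes (60%), against 9.76% of the 27025 genes in the table. The gamma activated site, searched as TTCNNNGAA, stood in 6 of the 25 (24%), against 9.55% of all genes. A match says only that these letters are in the window. The 80 upstream bases of 6 of these promoters are printed 5′ to 3′ on the gene's strand with the core in capitals (TTC at its left end means a match on the other strand), because the first 3 belong to genes past a threshold below and the last 3 carry 2 or more cores each. Positions count the start base as 0. A single position is the first base of a core, and a span runs from the first to the last base of its cores.
Oas1a: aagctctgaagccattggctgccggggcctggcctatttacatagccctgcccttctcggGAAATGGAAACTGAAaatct
Rsad2: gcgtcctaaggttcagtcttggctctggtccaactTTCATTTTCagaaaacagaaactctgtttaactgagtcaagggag
Slfn5: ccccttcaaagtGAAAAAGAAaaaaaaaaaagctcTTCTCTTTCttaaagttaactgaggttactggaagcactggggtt
Ifit1: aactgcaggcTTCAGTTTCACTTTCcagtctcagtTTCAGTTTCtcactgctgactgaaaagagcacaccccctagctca
Ifit3: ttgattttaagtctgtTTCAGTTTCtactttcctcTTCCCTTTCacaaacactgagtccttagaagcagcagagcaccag
Oas3: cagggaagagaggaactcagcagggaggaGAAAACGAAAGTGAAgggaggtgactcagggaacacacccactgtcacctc
Oas1a (chr5:120907526-120907605, minus strand) ends at the base before the start, and its overlapping pair of cores spans -20 to -6. Rsad2 (chr12:26456527-26456606, minus strand) has 1 core, at -119. Slfn5 (chr11:82951935-82952014, plus strand) has 1 core on each strand, at -155 and -132, and a run of A beside the first. Ifit1 (chr19:34640770-34640849, plus strand) has 3 cores from -109 to -76, of which 2 overlap. Ifit3 (chr19:34583392-34583471, plus strand) shows 2 of its 3 cores. Oas3 (chr5:120777684-120777763, minus strand) has an overlapping pair from -75 to -61, the same layout as in Oas1a.

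Levels are given below as log2 above the mean of the saline mice of the same experiment, because the overall array level differed between the experiments (median intensity 120 to 125 in experiment 1 and 362 to 386 in experiment 2). A value of 1 is therefore a doubling. The probe sets of Mx1 and Mx2 were among the dimmest 25% in saline mice of both experiments. Ifit3, the Oas genes and the Schlafen genes have near-identical neighbours in the mouse genome, and nothing in the files shows how the probe sets tell copies apart, so values of single family members are uncertain to that extent.

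One lung stood apart and is described before the group results, which are given with and without it. Beyond its label, nothing in the sources used here gives a check of this mouse's treatment or health, so its values are those of the library labelled anti-RGMb. Anti-RGMb mouse 1 of experiment 1 had a mean of 1.41 over the 33 genes, while the other 5 anti-RGMb mice had means of -0.01 to 0.11. It was the highest of all 17 mice in 32 of the 33 genes (in Oasl1 an isotype mouse was higher) and above the other 5 anti-RGMb mice in all 33. Over all 19751 genes it was above those 5 mice in 22.6%, and below them in 3537 genes.

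The size of this pattern differed by gene. Irf7, the transcription factor that amplifies interferon production, was at 3.26 in that mouse and at -0.11 to 0.31 in the other 5 anti-RGMb mice, which is 8.73-fold their mean. Ifi27l2a, a small hydrophobic protein gene, was at 2.78 against 0.27 to 0.58. The antiviral GTPase genes Mx2 and Mx1 were at 2.36 and 2.21, against -0.02 to 0.31 and 0.16 to 0.50. In each of these genes the mouse lay well clear of the other 5, which lay close together.

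Zbp1, a sensor of Z-form nucleic acid that can start necroptosis, was at 2.21 against 0.16 to 0.55. Ifit1, whose product binds foreign RNA ends, was at 1.98 against -0.27 to 0.01, and Usp18, which removes Isg15 from proteins and dampens the receptor, at 1.72 against -0.32 to 0.01. Slfn5, a Schlafen family gene, was the least raised, at 0.08 against -0.20 to 0.02, and the torsin ATPase gene Tor3a stood at 0.32 against -0.06 to 0.03. In 21 of the 33 genes the mouse lay more than 1 log2 unit above the mean of the other 5. Trim30a, just under that mark at 0.98, was in place 79 of all 19751 genes by this distance. The mouse was singled out by its values in these genes, so the count is a description and no test.

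When all 19751 genes were ordered by how far this mouse lay above the other anti-RGMb mice, 10 of the 33 genes were in the first 20, 17 in the first 50, 25 in the first 100 and 31 in the first 200. The first place was held by Ly6i, a Ly6 family gene outside the 35. The raised genes were not limited to the 35: of a list of 39 further interferon stimulated genes, 38 were above all 5 other anti-RGMb mice, as were 19 of 23 interferon gamma targets and 12 of 15 genes that induce type I interferon. Of 15 measured interferon genes themselves, 1 was above and 4 were below all 5 others, beside 3537 of all 19751 genes below. Of 12 negative regulators, 3 were above.

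Marker lists of cell types also set this lung apart. Over all 19751 genes, 3537 were below all 5 other anti-RGMb mice and 22.6% above. The mean of 9 eosinophil markers was 0.90, against 1.73 to 2.22 in the other 5 anti-RGMb mice, with 8 of 9 markers below all of them. The mean of 11 neutrophil markers was -0.42, against 0.33 to 0.70, with 10 of 11 below. All 10 T cell markers were above the other 5 mice (mean 0.64, against -0.06 to 0.27). The 10 pan-leukocyte markers had a mean of 0.69 against 0.33 to 0.58, with 7 of 10 above all of them. The 8 plasmacytoid dendritic cell markers went both ways, with 4 above and 2 below all 5 others (mean 0.25, against -0.14 to 0.04). The part of these cells in the interferon pattern was not tested.

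**Figure D1:**
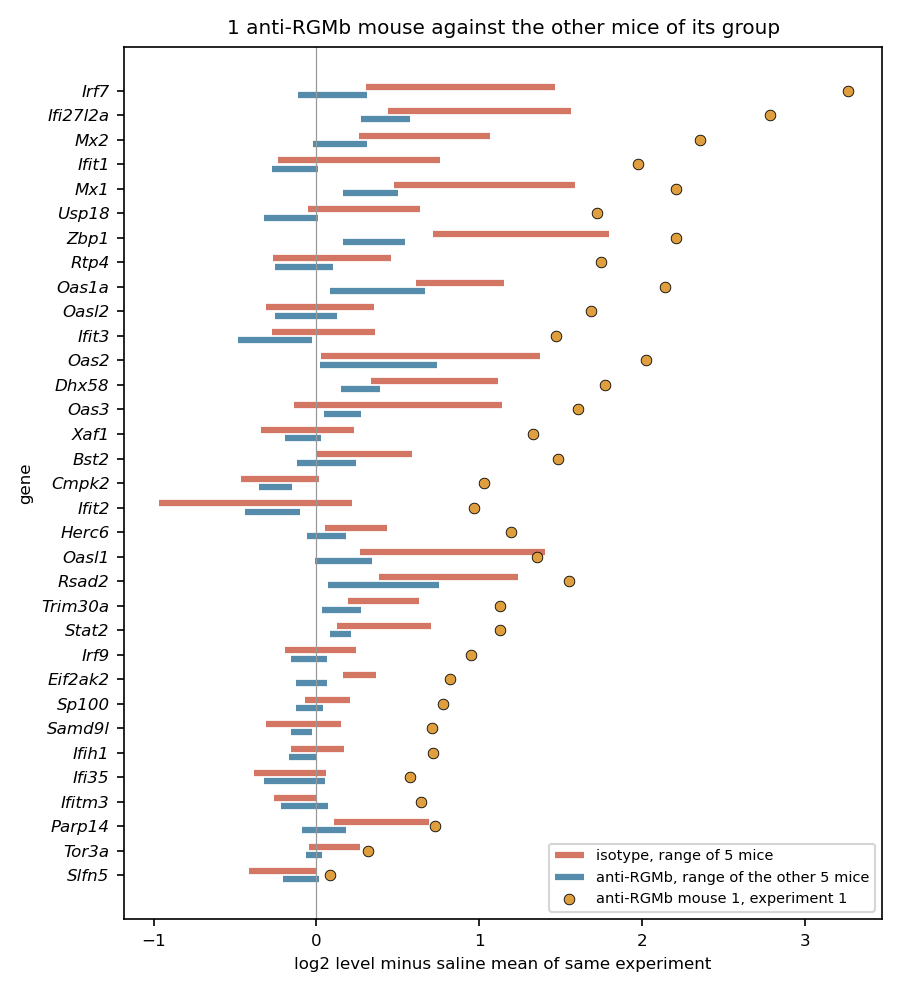
Levels of the 33 interferon stimulated genes (rows) as log2 above the saline mean of the same experiment (x axis). Points are anti-RGMb mouse 1 of experiment 1, blue bars the range of the other 5 anti-RGMb mice and red bars the range of 5 isotype mice; the point lies to the right of the blue bar in all 33 rows, from 0.08 in Slfn5 to 3.26 in Irf7.

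The first comparison, isotype minus saline, asks how the genes stood in the allergic lung under a control antibody. In the limma fit with the experiment as a term, 11 of the 33 were higher in isotype mice (adjusted p under 0.05 over all 19751 genes), 1 was lower and 21 did not pass. Of all genes, 14.6% were called higher and 21% lower. The median difference of the 33 was 0.31 log2 units, beside -0.04 over all genes, and 27 of 33 differences were above 0, beside 39.5% of all genes. In 12 genes every isotype mouse was above every saline mouse, as was so for 10.6% of all genes. P-values measure only the spread between these mice.

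**Figure D2:**
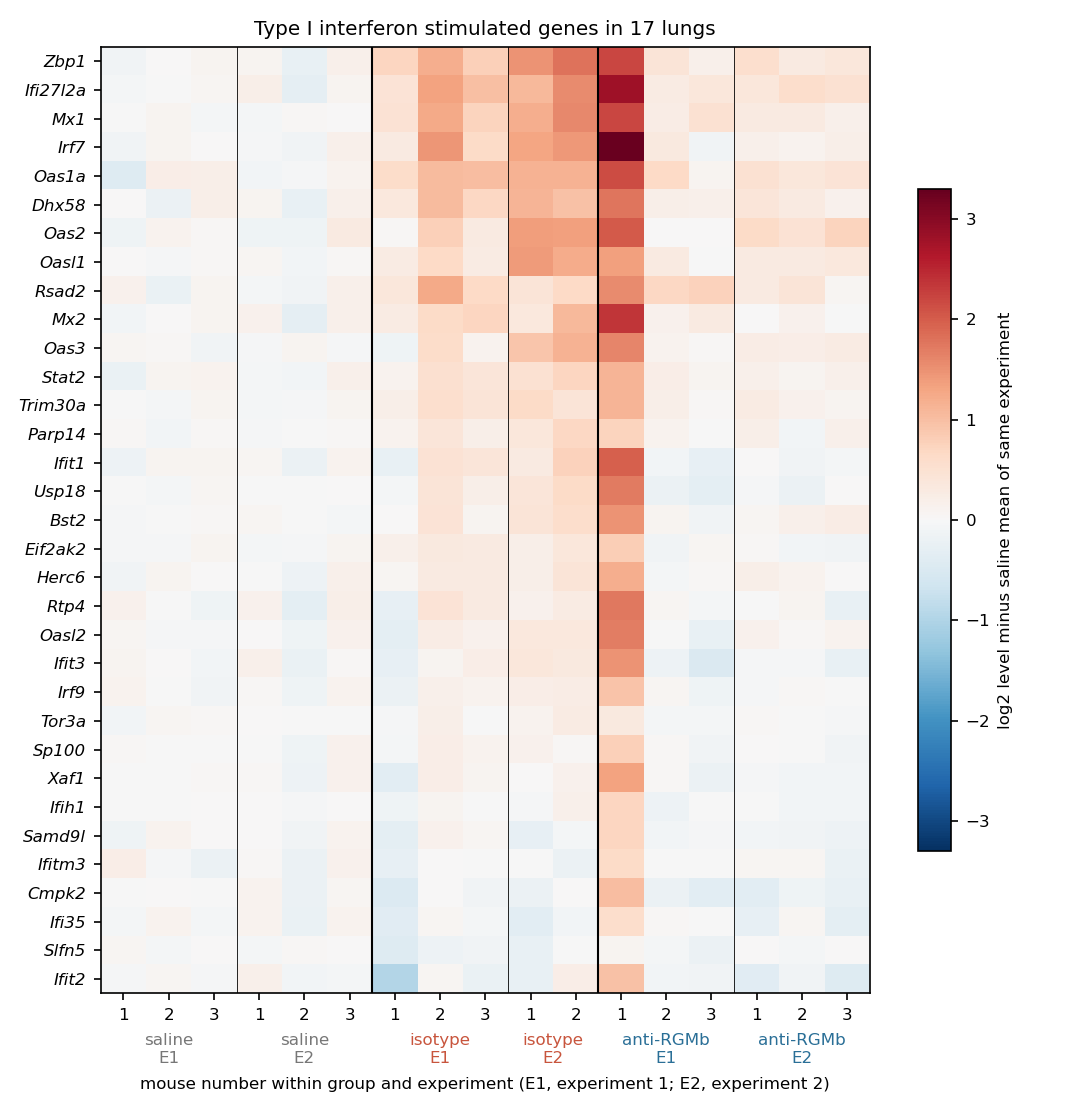
Heat map of 33 interferon stimulated genes (rows, ordered by isotype minus saline) in 17 mice (columns, by group and experiment); colour is log2 above the saline mean of the same experiment. Isotype mice are red in the upper rows, least so mouse 1 of experiment 1, and anti-RGMb mouse 1 of experiment 1 is the darkest column, with 3.26 in Irf7.

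Nucleic acid sensors held the largest rise. Zbp1 was at 0.72, 1.20 and 0.79 in isotype mice 1, 2 and 3 of experiment 1 and at 1.48 and 1.80 in those of experiment 2, while saline mice ran from -0.24 to 0.16 with a median of 0.05. All 5 isotype mice thus lay clear of saline, and Zbp1 was higher by 1.20 ± 0.29 log2 units (SE, 2.30-fold, adjusted p = 0.00303). Dhx58, which encodes the helicase LGP2 that tunes RNA sensing, was at 0.34, 1.05, 0.68, 1.11 and 0.97 in the same order and at -0.24 to 0.19 (median 0.04) in saline mice. It was higher by 0.82 ± 0.24 (adjusted p = 0.0103), with no overlap. The other 2 genes of the group did not pass: the RNA sensor gene Ifih1 (MDA5) differed by 0.01 ± 0.12, and Eif2ak2, the kinase PKR that stops translation, by 0.26 ± 0.12 (adjusted p = 0.126).

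Among 5 genes of the 2-5 oligoadenylate synthetase family, whose classic members make the messenger that activates RNase L, 3 rose. Oas1a was at 0.61, 1.04, 1.02, 1.14 and 1.16 in isotype mice and at -0.42 to 0.23 (median 0.05) in saline mice, with isotype mouse 1 of experiment 1 the lowest of its group but still above every saline mouse. It was higher by 0.98 ± 0.26 (1.97-fold, adjusted p = 0.00601). Oasl1, which in the mouse holds back translation of Irf7, was higher by 0.79 ± 0.22 (adjusted p = 0.00774) and Oas2 by 0.79 ± 0.30 (adjusted p = 0.0454). The Oas2 call was lost without any 1 of the 6 saline mice, isotype mouse 2 of experiment 1, either isotype mouse of experiment 2, or anti-RGMb mouse 1 or 3 of experiment 2. Oas3 (0.54 ± 0.25) and Oasl2 (0.15 ± 0.25) did not pass.

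Of the antiviral effectors, Mx1 was at 0.48, 1.25, 0.75, 1.20 and 1.59 in isotype mice and between -0.08 and 0.10 (median 0.00) in saline mice, again with no overlap, and was higher by 1.04 ± 0.29 (adjusted p = 0.0083). Mx2 differed by 0.57 ± 0.31 (adjusted p = 0.178). Rsad2, the radical SAM enzyme viperin, was at 0.39, 1.24, 0.65, 0.43 and 0.65, against -0.22 to 0.17 (median 0.01) in saline mice, and was higher by 0.64 ± 0.18 (adjusted p = 0.00953). Its chromosomal neighbour Cmpk2, a mitochondrial nucleotide kinase, differed by -0.16 ± 0.19. None of the 3 IFIT genes passed: Ifit1 differed by 0.32 ± 0.30, Ifit3 by 0.14 ± 0.25 and Ifit2 by -0.24 ± 0.22. Nor did the membrane proteins Bst2 (tetherin, 0.31 ± 0.21) and Ifitm3 (-0.11 ± 0.12), or the Isg15 pathway genes Usp18 (0.32 ± 0.27) and Herc6, the mouse ligase for Isg15 (0.25 ± 0.17).

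Of 3 transcription factors, Stat2 was higher by 0.45 ± 0.16 (adjusted p = 0.0337). Irf7 was at 0.31, 1.47, 0.64, 1.30 and 1.43 in isotype mice and at -0.12 to 0.16 (median -0.01) in saline mice. Although these values do not overlap, the difference of 1.01 ± 0.45 did not pass (adjusted p = 0.0913), in a fit whose shared spread includes the value of 3.26 in anti-RGMb mouse 1 of experiment 1. Irf9 differed by 0.11 ± 0.15.

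Among the remaining genes, Ifi27l2a was at 0.44, 1.34, 1.00, 1.08 and 1.56 in isotype mice, all above the saline range of -0.29 to 0.19 (median 0.03), and was higher by 1.07 ± 0.34 (adjusted p = 0.0209). Trim30a, a TRIM family gene, was higher by 0.44 ± 0.15 (adjusted p = 0.0263) and the ADP-ribosyl transferase gene Parp14 by 0.35 ± 0.12 (adjusted p = 0.0293). Xaf1, a partner of an apoptosis inhibitor, the receptor chaperone gene Rtp4, Ifi35, Tor3a, the nuclear body gene Sp100 and Samd9l differed by -0.18 to 0.16 and did not pass. The Ifi27l2a call was lost without isotype mouse 2 of experiment 2. The Stat2, Trim30a and Parp14 calls were each lost without isotype mouse 2 of experiment 1 or either isotype mouse of experiment 2, and without a saline mouse (mouse 1 of either experiment or 2 of experiment 2 for Stat2, mouse 2 of experiment 1 for Trim30a, and mouse 2 of experiment 1 or 1 of experiment 2 for Parp14).

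Slfn5 was the only gene called lower. It was at -0.41, -0.17, -0.12, -0.24 and 0.00 in isotype mice, against -0.08 to 0.07 (median 0.01) in saline mice, so that the highest isotype mouse lay within the saline range. The difference of -0.19 ± 0.07 (adjusted p = 0.0338) was lost without saline mouse 1 or 3 of experiment 1, saline mouse 2 or 3 of experiment 2, or isotype mouse 1 of either experiment.

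The isotype mice differed among themselves. Their means over the 33 genes were -0.01, 0.50 and 0.29 in experiment 1 and 0.45 and 0.61 in experiment 2, beside -0.12 to 0.09 in saline mice. Isotype mouse 1 of experiment 1, which had the lowest mean, was the lowest of the 5 isotype mice in all 33 genes, as it was in 15.8% of all genes. In experiment 1 alone 1 gene was called higher (Rsad2, background 8.81%), and in experiment 2 alone 8 were (background 13.7%), with medians of 0.19 and 0.50. The difference between the experiments passed for none of the 33 genes in limma with all mice, and for 0.668% of all genes. In place of 11, the number called higher was 7 without isotype mouse 2 of experiment 1, 7 without isotype mouse 1 of experiment 2 and 6 without isotype mouse 2 of experiment 2. The share of all genes called in these fits was not counted.

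Markers of many cell types moved in the same comparison. All 10 pan-leukocyte markers were higher in isotype mice, with group means of 0.82 to 1.05 per mouse against -0.05 to 0.05 in saline mice, and 9 of 11 interstitial macrophage markers were higher (1.36 to 1.74 per mouse). All 9 eosinophil markers were higher, with a median difference of 1.77. Of 8 plasmacytoid dendritic cell markers, a type known for high interferon output, 4 were higher and 2 lower. Markers of other types went down: 10 of 11 endothelial markers were lower and 1 higher (median -0.47), all 9 airway club and ciliated cell markers were lower (median -0.49), and of 10 cardiac muscle markers 8 were lower and 0 higher (median -1.62). In RNA of whole lung, more cells of a type and more RNA per cell cannot be told apart, and the part of these cells in the rise of the interferon stimulated genes was not tested. Isotype mouse 1 of experiment 1 had a leukocyte mean of 0.90, within the range of the other isotype mice, beside its mean of -0.01 over the interferon stimulated genes. That is 1 mouse, the mean of 10 markers does not give its mix of cell types, and what sets it apart was not tested.

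**Figure D3:**
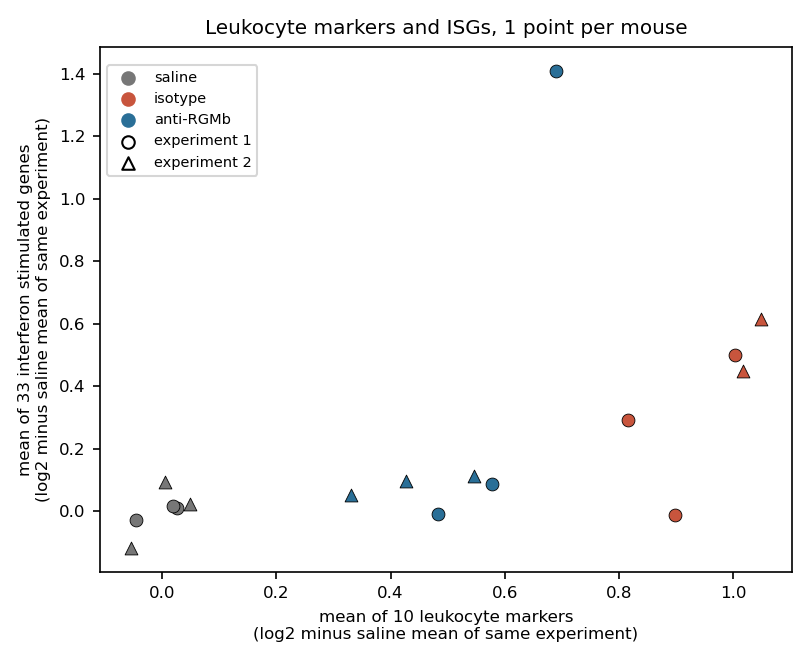
Mean of 33 interferon stimulated genes (y axis) against the mean of 10 pan-leukocyte markers (x axis), both as log2 above the saline mean of the same experiment, 1 point per mouse, coloured by group, with circles for experiment 1 and triangles for experiment 2. Isotype mice lie at 0.82 to 1.05 on the leukocyte axis and from -0.01 to 0.61 on the interferon axis, and 1 anti-RGMb mouse lies at 1.41 on the interferon axis.

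When anti-RGMb mouse 1 of experiment 1 was left out of the fit, isotype minus saline gave 19 genes higher and 1 lower of 33 (14.8% and 20.9% of all genes). In experiment 1 alone 12 genes were then higher, in place of 1, and in experiment 2 alone 19, in place of 8 (8.88% and 13.7% of all genes). The saline and isotype values are the same in both fits, and the SE for Irf7 was 0.45 with that mouse and 0.16 without it. All 12 earlier calls were kept, and Bst2, Eif2ak2, Herc6, Ifit1, Irf7, Mx2, Oas3 and Usp18 were added. Irf7 was then higher by 1.05 ± 0.16 (adjusted p = 6.28e-05). In this fit 1 gene, Oasl1, differed between the experiments, with 0.40 in experiment 1 and 1.32 in experiment 2 (adjusted p of the difference = 0.012). The mouse was singled out by its values in these genes, so the fit without it is no independent test.

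The second comparison, anti-RGMb minus isotype, asks whether the antibody to RGMb altered these genes in the allergic lung. With all mice, 0 of the 33 passed in either direction by limma, against 11.1% of all genes called higher and 10% called lower. At an unadjusted p under 0.05 there was 1, Slfn5, which differed by 0.15 ± 0.07 (adjusted p = 0.129; 17.1% of all genes were higher at that p). The median difference was -0.08, beside 0.03 over all genes, and 14 of 33 differences were above 0, beside 58.2% of all genes. The intervals were wide: for Irf7 the difference was -0.35 with a 95% interval of -1.29 to 0.59, and for Zbp1 -0.53 with one of -1.14 to 0.08.

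Signs went opposite ways in the experiments. In experiment 1, which holds the mouse that stands apart, all 33 differences were above 0 (median 0.23) and 0 were called lower (3.13% of all genes). In experiment 2, 29 of 33 were below 0 (median -0.34) and 3 were called lower by limma, a share no larger than the 11.3% of all genes. The 3 were Zbp1 (-1.23, adjusted p = 0.0377), Mx1 (-1.15, adjusted p = 0.048) and Oasl1 (-1.01, adjusted p = 0.0102). The share of all genes below 0 within an experiment was not counted. The difference between the experiments passed for none of the 33, and for 0.471% of all genes.

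Without that mouse, 16 of the 33 genes were lower under anti-RGMb, 0 were higher and 17 did not pass (background 10.5% lower and 10.3% higher). Of the 17 fits that leave out 1 mouse, this one alone called any of the genes lower. The median difference was then -0.30, beside 0.03 over all genes. Of 33 differences 29 were below 0, of which 10 had been above 0 with all mice. Within experiment 1 the remaining 2 anti-RGMb mice gave 2 genes lower, Zbp1 and Usp18 (background 2.34%). In experiment 2, where no mouse was removed and only the shared spread changed, 17 genes were lower (background 11.3%). The mouse was left out because it was high in these genes. Its removal lowers the anti-RGMb mean of experiment 1 and the shared spread by construction. Counts and p-values without it, here and below, are therefore no independent test.

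By role, these 16 genes included 2 of the 3 transcription factors, Irf7 and Stat2 (-0.32 ± 0.09). Irf7 stood at -0.11 to 0.31 in the 5 remaining anti-RGMb mice against 0.31 to 1.47 in isotype mice, which overlap by 1 mouse of each group, and was lower, with a difference of -0.93 ± 0.17 (adjusted p = 0.000921). Among sensors, Zbp1 stood at 0.16 to 0.55 against 0.72 to 1.80, with no overlap, a difference of -0.89 ± 0.14 (adjusted p = 0.000333). Dhx58 (-0.62 ± 0.12) and Eif2ak2 (-0.31 ± 0.06) were lower too, the latter again without overlap. Of the 33, Zbp1 and Eif2ak2 were the only genes whose groups did not overlap, which held for 6.55% of all genes in this direction.

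The antiviral effectors among the 16 were both Mx genes, 2 synthetase genes and 2 IFIT genes. Their differences were -0.78 ± 0.14 for Mx1, -0.49 ± 0.13 for Mx2, -0.60 ± 0.13 for Oas1a, -0.59 ± 0.14 for Oasl1, -0.47 ± 0.13 for Ifit1 and -0.37 ± 0.10 for Ifit3. The others were Ifi27l2a (-0.70 ± 0.15), the feedback gene Usp18 (-0.50 ± 0.09), Trim30a (-0.31 ± 0.07), Parp14 (-0.30 ± 0.09) and Bst2 (-0.25 ± 0.09, adjusted p = 0.0497, beside 0.01 with all mice). Oas2 (-0.49 ± 0.17, adjusted p = 0.0599) and Oas3 (-0.40 ± 0.15, adjusted p = 0.066) missed the threshold by little. Rsad2, one of the genes raised in isotype mice, differed by -0.18 ± 0.14 (adjusted p = 0.404).

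**Figure D4:**
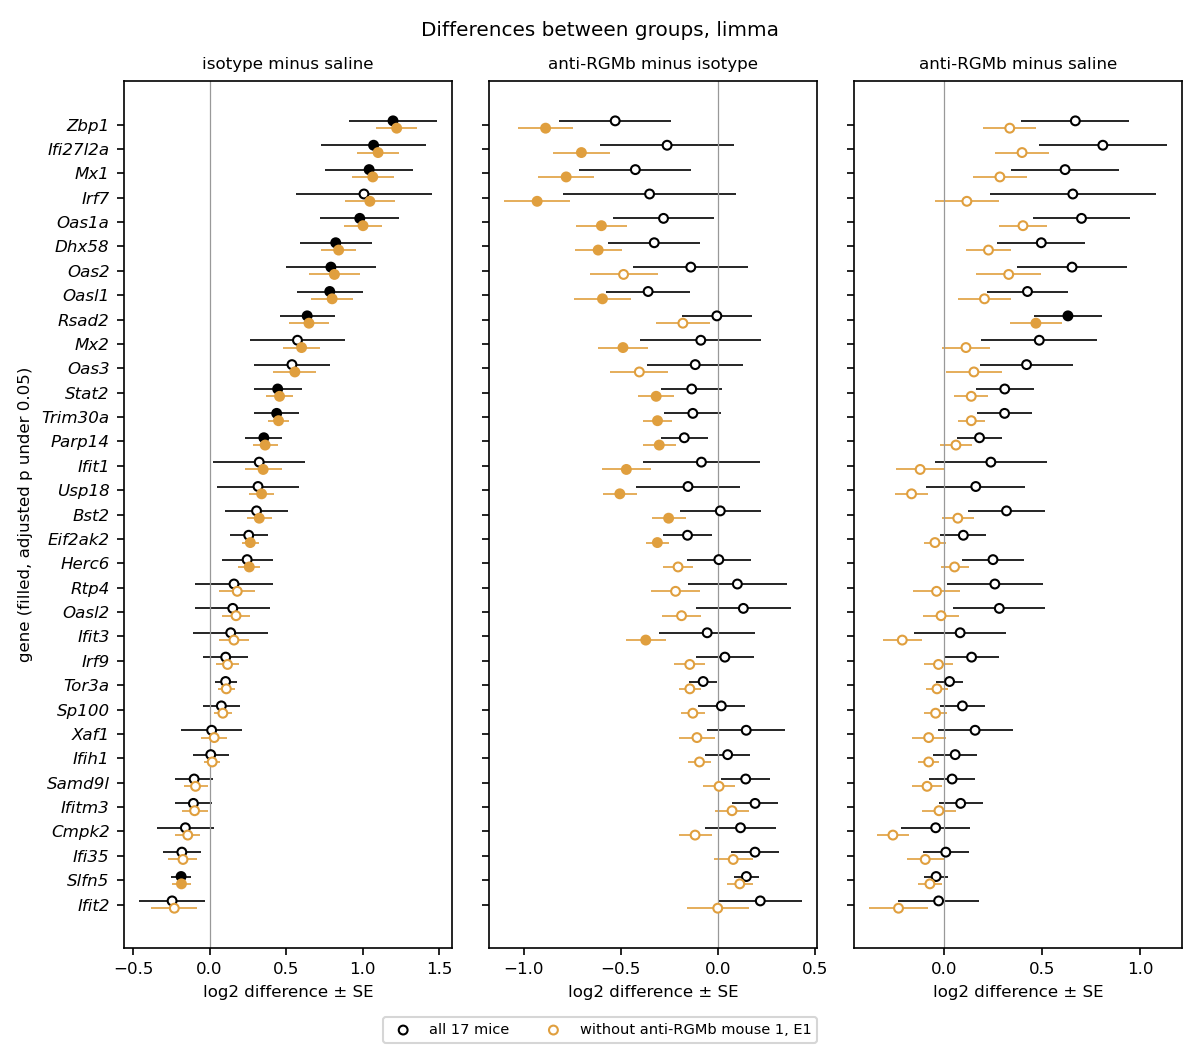
Log2 differences between groups with their standard errors (x axis) for 33 interferon stimulated genes (rows) in the 3 comparisons, from limma; black, all 17 mice; orange, without anti-RGMb mouse 1 of experiment 1; filled points have an adjusted p under 0.05. In anti-RGMb minus isotype no black point is filled and 16 orange points are, all to the left of 0.

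Cell type markers moved in this comparison too, with all mice in the fit. All 10 pan-leukocyte markers were lower under anti-RGMb, at 0.33 to 0.69 per mouse against 0.82 to 1.05 in isotype mice, as were 9 of 11 interstitial macrophage markers, and both counts were the same without the mouse that stands apart. Of 9 eosinophil markers 7 were lower, with and without that mouse. Other markers went the other way: 10 of 11 endothelial markers were higher (10 without that mouse), 7 of 9 airway markers (6 without it) and 5 of 10 cardiac muscle markers (3 without it). Of 8 plasmacytoid dendritic cell markers, 3 were lower and 1 was higher, and of 10 natural killer cell markers 0 passed by limma. The part of these cells in the result was not tested.

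The third comparison, anti-RGMb minus saline, shares its mice with both others. With all mice, 1 of the 33 genes was higher and 0 were lower, against 4.26% and 2.24% of all genes. The gene was Rsad2, at 1.55, 0.69 and 0.75 in anti-RGMb mice 1, 2 and 3 of experiment 1 and at 0.30, 0.43 and 0.07 in those of experiment 2, beside -0.22 to 0.17 in saline mice. The lowest anti-RGMb mouse lay within the saline range, and the difference was 0.63 ± 0.17 (adjusted p = 0.0333). It was lost without any 1 of the saline mice of experiment 1, saline mouse 1 or 2 of experiment 2, anti-RGMb mouse 2 or 3 of experiment 1, or anti-RGMb mouse 2 of experiment 2. At an unadjusted p under 0.05, 8 genes were higher and 0 lower (7.98% of all genes were higher), and without anti-RGMb mouse 1 of experiment 1, 4 were higher and 2 lower (7.42% and 11.4% of all genes).

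In Zbp1, Mx1 and Ifi27l2a every anti-RGMb mouse was above every saline mouse, as held for 4.18% of all genes, although their differences of 0.67 ± 0.28, 0.62 ± 0.27 and 0.81 ± 0.33 did not pass. The medians of the 6 anti-RGMb mice were 0.40, 0.29 and 0.43. The median difference of the 33 genes was 0.25, beside -0.01 over all genes, and 30 were above 0, beside 43.7% of all genes. The difference between the experiments passed for none of them and for 0% of all genes. Without anti-RGMb mouse 1 of experiment 1, Rsad2 was higher by 0.47 ± 0.13 (adjusted p = 0.0498, 3.76% of all genes higher), and the median of the 33 was -0.01, with 16 above and 17 below 0. The sign of 14 genes changed, among them Ifit1 (from 0.24 to -0.12) and Usp18 (from 0.16 to -0.16).

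Other genes of the pathway were taken from lists of known members. Of all genes, 14.6% were higher and 21% lower in isotype minus saline, and 11.1% and 10% in anti-RGMb minus isotype. In anti-RGMb minus saline the shares were 4.26% and 2.24%. Without anti-RGMb mouse 1 of experiment 1 the shares were 14.8% and 20.9%, 10.3% and 10.5%, and 3.76% and 1.56%. A list count near these shares shows nothing particular to the list. Of 15 interferon genes (ligands), 0 were higher and 1 was lower in isotype than in saline mice. That was Ifna11, with -0.23 ± 0.07 (adjusted p = 0.0136) and overlapping groups. Ifnb1, the first interferon made in most infected cells, differed by -0.09 ± 0.07 and did not pass. Under anti-RGMb, Ifng, the type II interferon of T and natural killer cells, was lower than in isotype mice (-0.24 ± 0.08, adjusted p = 0.048). Its groups overlapped too, and no other ligand passed.

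Of 11 genes for receptors and signalling, 7 were higher and 1 lower in isotype mice. Ifngr2, a chain of the interferon gamma receptor, was higher by 0.49 ± 0.05 (adjusted p = 1.26e-06) and its kinase gene Jak2 by 0.59 ± 0.08. Ifnlr1, the receptor chain for type III interferon found on epithelium, was lower (-0.36 ± 0.05). Under anti-RGMb 5 of these 11 were lower than in isotype mice and 1 was higher. Jak2 (-0.45 ± 0.08) and Ifngr2 (-0.31 ± 0.05) were lower, and Ifnlr1 was higher by 0.29 ± 0.05.

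Of 15 genes for the induction of type I interferon, 9 were higher and 1 lower in isotype mice. The endosomal RNA receptor gene Tlr7 was higher by 1.10 ± 0.15, its chaperone Unc93b1 by 1.01 ± 0.07, the transcription factor Irf5 by 1.02 ± 0.08 and the kinase gene Ikbke by 0.87 ± 0.10. Under anti-RGMb 4 of the 15 were lower than in isotype mice (7 without the mouse that stands apart), among them Ikbke (-0.52 ± 0.10), Irf5 (-0.47 ± 0.08) and Unc93b1 (-0.45 ± 0.07), and 5 were higher than in saline mice (3 without that mouse). Leukocyte markers moved in the same direction, and the part of leukocytes in the result was not tested.

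Of 12 negative regulators, 6 were higher and 2 lower in isotype mice, with the phosphatase gene Ptpn6 higher by 0.84 ± 0.09 and Tnfaip3, which encodes the ubiquitin editor A20, by 0.67 ± 0.08. Under anti-RGMb 5 were lower and 1 was higher than in isotype mice, Ptpn6 (-0.45 ± 0.09) among those lower.

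Of 23 interferon gamma targets, 12 were higher and 0 lower in isotype mice, with limma over all mice. The chemokine genes Cxcl9 and Cxcl10, which draw T cells, were higher by 2.48 ± 0.30 and 1.44 ± 0.28, and Ciita, the activator of MHC class II genes, by 1.26 ± 0.10. Under anti-RGMb 4 were lower than in isotype mice, among them Cxcl9 (-1.27 ± 0.30) and Ciita (-0.74 ± 0.10), and without the mouse that stands apart 13 were. Of 39 further interferon stimulated genes, 9 were higher and 1 lower in isotype mice, or 16 and 3 without that mouse. Of the same 39, 3 were lower and 1 higher under anti-RGMb than in isotype mice (10% and 11.1% of all genes). Without that mouse 12 were lower and 1 higher (10.5% and 10.3% of all genes). The gene higher was Ube2l6, the conjugating enzyme for Isg15, by 0.29 ± 0.09 (adjusted p = 0.025), and by 0.21 ± 0.07 without it (adjusted p = 0.0499). The Schlafen gene Slfn9 was higher by 1.82 ± 0.17 in isotype mice and lower (-0.75 ± 0.17) under anti-RGMb, whereas Slfn5 among the 35 was called lower in isotype mice.

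**Figure D5:**
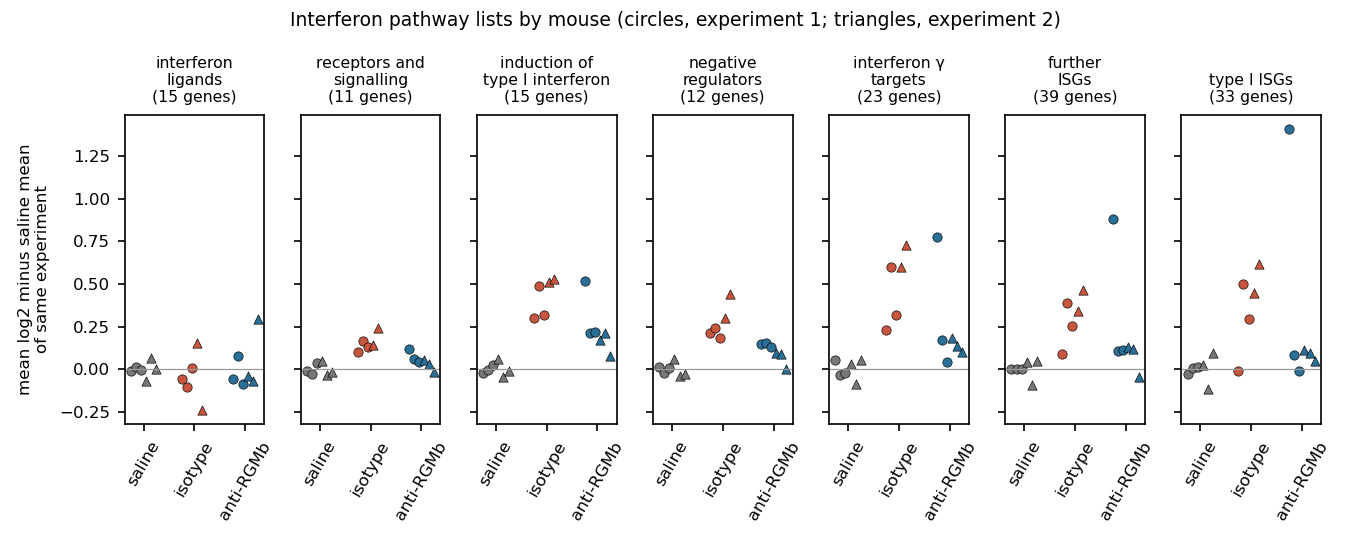
Mean log2 above the saline mean of the same experiment (y axis) for 6 lists of interferon pathway genes and, at the right, the 33 type I interferon stimulated genes (ISGs), 1 point per mouse by group. The ligand means of isotype mice run from -0.24 to 0.15, while for the type I genes anti-RGMb mouse 1 of experiment 1 lies at 1.41 and the other 5 anti-RGMb mice lie between -0.01 and 0.11.

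Promoters with and without the core were set beside the values. The 13 measured genes with a core in the window had a median of 0.98 log2 units for anti-RGMb mouse 1 of experiment 1 over the other anti-RGMb mice, and the 10 measured genes with a promoter entry but no core had a median of 1.17. In isotype minus saline 4 of those 13 and 1 of those 10 were called higher, beside 14.6% of all genes. Slfn5 and Oas1a, printed above with 2 cores each, were the gene called lower and one of the genes most raised. This is a description over few genes and was not tested.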

How the data were processed

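Per the submitters' processing notes, the authors used RMA on the arrays, and the deposited column of each array holds intensity on a linear scale. The RMA version is unstated in these sources. The log2 of each intensity was taken with no added constant. Of 24679 probe sets, 21354 had 1 gene symbol, 1275 several and 2050 none; those with 1 symbol were used, and for 893 genes the brightest of several over all arrays, which left 19751 genes. limma 3.58.1 in R 4.3.3 was fitted to all 17 arrays with terms for group and experiment (eBayes, prior degrees of freedom 4.32), with 2-sided p-values adjusted by Benjamini-Hochberg over all genes and a threshold of 0.05. Values within experiments and their difference came from a model with 1 mean for each combination of group and experiment. The fit was tested on simulated data with independent noise and shifts planted in isotype mice. No outlying mouse was simulated, so that test does not cover the effect of anti-RGMb mouse 1 of experiment 1. The precision rests on the number of arrays.

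The 35 genes, the pathway and marker lists and the tests were chosen with earlier results of these data known. Every gene of the 35 is accounted for; values of every mouse are given for up to 5 genes with the largest rise and 5 with the largest fall past the threshold of a comparison, and for Irf7, which was added after its values were seen. Of each pathway list, genes were named from the 4 with the smallest p per comparison. Alternatives were other normalizations, filters, blocks, sets of samples and leaving out each mouse. Promoters came from RefSeq (GRCm38.p6) and were matched by symbol; 10 genes had no entry.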

Additional observations from a re-analysis of the deposited data

Results flagged for a closer look

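A lowest or highest mouse that stood far from the rest of its group, by the ratio of its gap to the group's range (Dixon's 95% critical value), was found in 32 of 99 combinations of gene and group. Chance alone flags about 1 in 20 groups, but the genes share the same mice, so the 99 combinations are not independent. The share of flags over all genes was not counted, so the 32 cannot be told from a share over all genes. The highest mouse was anti-RGMb mouse 1 of experiment 1 in 30 of the 32, with these levels in log2 above saline.

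Among transcription factors it was at 3.26 in Irf7, 1.13 in Stat2 and 0.95 in Irf9. Among sensors it was at 2.21 in Zbp1, 1.78 in Dhx58, 0.82 in Eif2ak2 and 0.71 in Ifih1. The IFIT genes stood at 1.98 (Ifit1), 1.47 (Ifit3) and 0.97 (Ifit2). The synthetase genes stood at 2.14 (Oas1a), 2.02 (Oas2), 1.69 (Oasl2), 1.61 (Oas3) and 1.35 (Oasl1). The Mx genes were at 2.36 (Mx2) and 2.21 (Mx1). Usp18 was at 1.72, Herc6 at 1.20, Bst2 at 1.48, Ifitm3 at 0.64 and Cmpk2 at 1.03. Trim30a was at 1.13, Sp100 at 0.78, Samd9l at 0.71, Parp14 at 0.73, Ifi27l2a at 2.78, Rtp4 at 1.75, Xaf1 at 1.33 and Tor3a at 0.32. Only Rsad2, Ifi35 and Slfn5 of the 33 were not flagged in anti-RGMb mice.

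The other two flags were of isotype mouse 1 of experiment 1, the lowest of its group in both: Oas1a at 0.61 and Irf9 at -0.19.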

How the results depend on the processing

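Isotype minus saline gave 11 genes higher and 1 lower of 33 (14.6% and 21% of all genes). Of the alternatives, only single experiments and the fit without anti-RGMb mouse 1 of experiment 1 had the share of all genes counted. Any other count below has no background beside it, so it cannot be told from a change over all genes. With the mouse number within the experiment as a replicate block, 7 were higher and 0 lower. Without an experiment term 0 and 0 passed, in a fit where the array level of the experiments (median intensity 120 to 125 against 362 to 386) is part of the spread. With only the saline and isotype mice 18 were higher and 0 lower. In experiment 1 alone 1 was higher and 0 lower, and in experiment 2 alone 0 were lower. Leaving out 1 mouse gave 6 to 19 higher and 0 to 1 lower; the 19 came without anti-RGMb mouse 1 of experiment 1.

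Anti-RGMb minus isotype gave 0 in either direction, and 3 lower in experiment 2 alone (11.3% of all genes). Leaving out 1 mouse gave 0 to 1 higher (1 without isotype mouse 2 of experiment 2) and 0 to 16 lower (16 without anti-RGMb mouse 1 of experiment 1). Anti-RGMb minus saline gave 1 higher, and 0 with the replicate block, without an experiment term or in experiment 2 alone; leaving out 1 mouse gave 0 to 1.

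Alternatives chosen after seeing the data combined the absence of that mouse with another setting. Isotype minus saline then gave 12 higher in experiment 1 alone and 19 in experiment 2 alone, and also 19 with the replicate block, with trend and robust variances and with arrays centred on their median, and 0 lower in either experiment alone or with the block. Anti-RGMb minus isotype gave 2 lower in experiment 1, 17 in experiment 2, 15 with the block, 16 with trend and robust variances and 15 with centred arrays. Anti-RGMb minus saline gave 0 higher in experiment 1 or with the block, and 1 lower with centred arrays.

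None of the 13 differences past the threshold with all mice changed sign under the 33 to 34 alternatives run for each. These 13 were picked for passing and most alternatives share the same mice, so a change of sign was unlikely from the start. The calls themselves were lost in 2 (such as Dhx58) to 16 (Oas2) of the alternatives. Differences that were not past it did: without that mouse, the sign turned in 0 of 33 genes in isotype minus saline, 10 in anti-RGMb minus isotype and 14 in anti-RGMb minus saline, and within experiments 1 and 2 in 2 and 0, 19 and 10, and 2 and 13 genes of these comparisons. The cause of these shifts was not tested. The number of arrays limits the precision, and Mx1 and Mx2 are read from dim probe sets. Of 16 pairs of same-numbered mice of different groups within an experiment, 3 had residuals that correlated above 0.1 (range -0.60 to 0.30). Residuals were taken within sets of 2 or 3 mice and sum to 0, so this check cannot decide whether mice were paired. Mice were treated as unpaired in the main fit, and the fit with the replicate block is given above.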
